A study of Homo sapiens with 16 samples.

Results

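HNRNPH2, HNRNPH3, HNRNPF and GRSF1 are the paralogs of HNRNPH1, and their RNA levels and transcript variants were followed after small interfering RNA (siRNA) against HNRNPH1 in 2 human cell lines. The members were chosen by gene symbol, which gave 4 of the 61906 genes in the deposited expression tables and 27 of their 251295 transcripts. HNRNPH2 (ENSG00000126945.9) has 1 listed transcript, HNRNPH3 (ENSG00000096746.18) has 11, HNRNPF (ENSG00000169813.17) has 8 and GRSF1 (ENSG00000132463.15) has 7. All 4 genes passed the filter on low counts in both lines. Of their transcripts, 1 of HNRNPH2, 10 of HNRNPH3, 8 of HNRNPF and 6 of GRSF1 passed it in HEK-293T, and 1, 10, 7 and 5 in HT-1080.

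The series holds 16 samples of HEK-293T, an embryonic kidney line transformed to carry SV40 large T antigen, and of HT-1080, a fibrosarcoma line, both human. In each line, cells received 20 nM of either a siRNA against HNRNPH1 (siHNRNPH1) or a control siRNA (siNegative), and RNA was taken 48 h later. Both groups of a line therefore went through lipid transfection, and no untransfected cells enter a comparison here. Short-read RNA-seq covers 3 replicates in each of the 4 groups, described as biological replicates in the labels, and IsoSeq (full-length cDNA sequencing) covers 1 pool of replicates per group. The labels name 1 siRNA condition against the target, so effects of HNRNPH1 loss and of that reagent cannot be told apart.

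The HNRNPH/F proteins are RNA-binding proteins of the heterogeneous nuclear ribonucleoprotein (hnRNP) group. They bind runs of guanine through quasi-RNA recognition motifs and are known for steering alternative splicing and polyadenylation, often on the same targets. HNRNPH2 is the closest relative of HNRNPH1, HNRNPF is somewhat more distant, HNRNPH3 lacks part of the RNA-binding region of the others, and GRSF1 acts mainly in mitochondrial RNA granules. Splicing factors commonly regulate transcripts of their own genes and of their paralogs, in many cases through exons whose inclusion or skipping shifts the reading frame.

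Library totals lay between 107.7 and 121.0 M (mega) expected counts in HEK-293T, and between 27.3 and 32.7 M in HT-1080. Within groups, log2 levels of the libraries correlated with a Pearson r of 0.994 to 0.999 across genes, except that HEK-293T siHNRNPH1 replicate 1 reached only 0.946 and 0.941 with replicates 2 and 3. The main HEK-293T gene, sum and usage results are therefore given with and without that library. In HT-1080, siNegative replicate 2 stood further from its group than the other libraries of that line. Its r was 0.994 with replicates 1 and 3, which reached 0.998 with each other. Its chi-square per degree of freedom was 17.8 and 17.4 with them, against 1.78 between them. Markers fit the line names in part. CD44 and PLAU, surface and protease-system genes of mesenchymal cells, lay at 1718 CPM (counts per mega counts of the library) or more in every HT-1080 library and at no more than 2.76 CPM in HEK-293T. NEFM, a neurofilament gene of HEK cells, lay at 252 to 490.2 CPM in HEK-293T and at most at 0.0330 CPM in HT-1080. NEFL, another neurofilament gene of that list, did not separate the lines (65.8 to 112 CPM in HEK-293T, 79.9 to 111 in HT-1080), and LHX1, listed for HEK-293T, was higher in HT-1080 (12.7 to 19.0 CPM, against 3.45 to 5.13). MMP1, listed as an HT-1080 marker, was low there, at 1.26 to 1.99 CPM. PTPRC, PECAM1 and ALB, markers of leukocytes, endothelium and hepatocytes, did not pass 0.279 CPM in any library. EPCAM, listed for epithelium, was higher in HEK-293T, at 0.639 to 1.47 CPM, and lay at 0.103 CPM or less in HT-1080.

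The target itself fell in both lines. HNRNPH1 (ENSG00000169045.17) stood at 1107, 1105 and 1121 CPM in the HEK-293T siNegative libraries and at 234, 376 and 394 CPM after siHNRNPH1. The log2 fold change was -1.76 (SE 0.20, edgeR quasi-likelihood test with Benjamini-Hochberg (BH) adjustment, adjusted p = 0.00939) and -1.58 without replicate 1 (adjusted p = 6.94e-21). The HEK-293T call was lost on leaving out siNegative replicate 1, 2 or 3 (adjusted p = 0.0760, 0.0757 and 0.0743) or siHNRNPH1 replicate 2 (0.0514), with HNRNPH1 still at -1.84 to -1.76. In HT-1080 it went from 635, 606 and 617 CPM to 231, 231 and 228 CPM, a log2 fold change of -1.49 (SE 0.04, adjusted p = 6.76e-09). The residual HNRNPH1 level was 30.1% of control in HEK-293T, against 37.2% in HT-1080. The difference between these log2 fold changes, 0.20, did not pass the interaction test (adjusted p = 0.506). In bulk RNA, fewer transfected cells and less RNA per cell cannot be told apart.

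**Figure D1:**
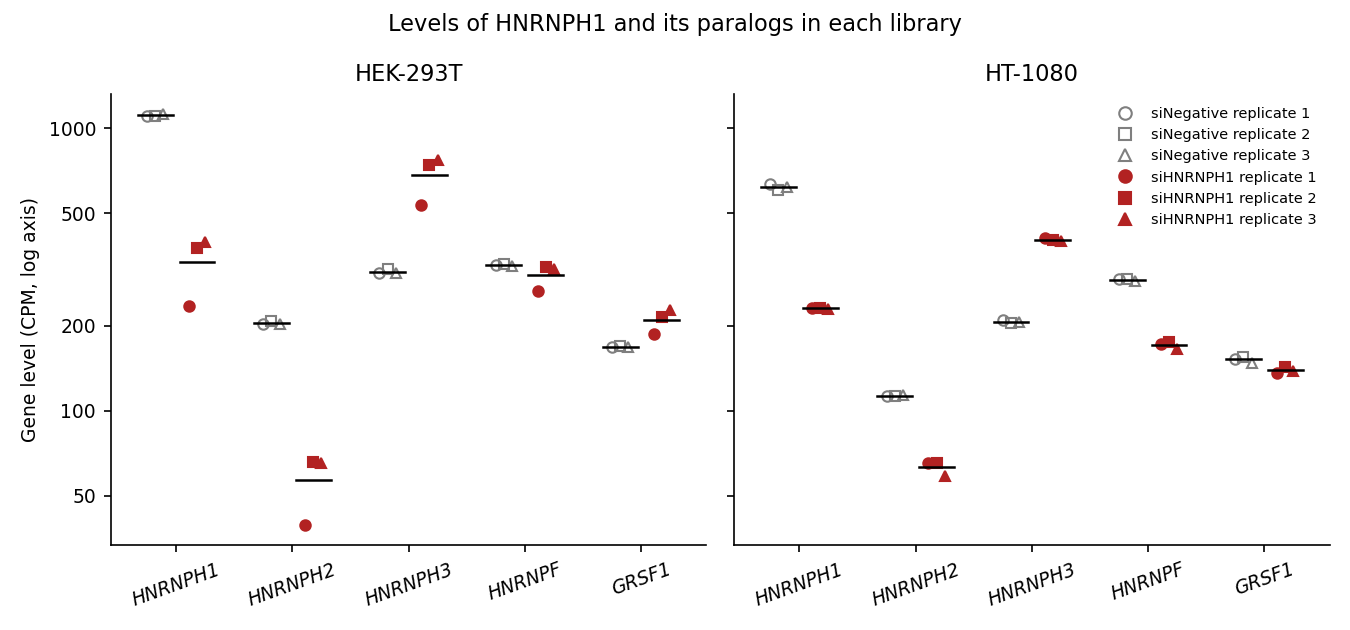
Gene levels in CPM (log axis) for HNRNPH1, HNRNPH2, HNRNPH3, HNRNPF and GRSF1 in each of the 12 short-read libraries, HEK-293T on the left and HT-1080 on the right. Open grey symbols are siNegative, filled red symbols are siHNRNPH1, the symbol shape gives the replicate and black bars are means of 3. HNRNPH3 is the gene that is higher after siHNRNPH1 in every library of both lines while HNRNPH1 and HNRNPH2 are lower in every one, and GRSF1 lies on opposite sides of its control in the 2 lines.

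At the gene level, 2 of the 4 paralogs passed the test in HEK-293T (HNRNPH2 and HNRNPH3) and 4 of 4 in HT-1080. The background differs widely between the lines: 10.0% of all genes tested passed in HEK-293T with all libraries, 61.8% without siHNRNPH1 replicate 1, and 65.3% in HT-1080. A call in HT-1080 or in the reduced HEK-293T set is therefore common to most genes, and sizes and directions carry more than the calls. The median log2 fold change of all genes was 0.02 in HEK-293T and 0.01 in HT-1080.

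HNRNPH2, whose protein is nearly the same as that of HNRNPH1, fell with it. In HEK-293T its level was 203, 208 and 203 CPM with siNegative (205 ± 2.50, SD, n = 3) and 39.5, 65.5 and 65.4 CPM with siHNRNPH1 (56.8 ± 15.0, SD, n = 3). All siHNRNPH1 libraries lay below all controls, and replicate 1 was the lowest, as it was for HNRNPH1. The log2 fold change was -1.88 (SE 0.20, adjusted p = 0.00875), a 3.69-fold lower level. Without replicate 1 it was -1.70 (adjusted p = 5.27e-21). Leaving out siNegative replicate 1, 2 or 3 instead kept the value between -1.90 and -1.87 but raised the adjusted p to 0.0696, 0.0701 and 0.0689. Without siHNRNPH1 replicate 2 or 3 HNRNPH2 stayed called (adjusted p = 0.0467 and 0.0350).

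In HT-1080, HNRNPH2 went from 112, 112 and 113 CPM (113 ± 0.591, SD, n = 3) to 65.5, 65.1 and 58.9 CPM (63.1 ± 3.72, SD, n = 3). The groups did not overlap, and the log2 fold change was -0.90 (SE 0.05, adjusted p = 3.57e-07), 1.87-fold lower. The fall was thus smaller than in HEK-293T. The difference of 0.92 in log2 fold change (HT-1080 minus HEK-293T, SE 0.19) passed the interaction test with an adjusted p of 0.00742, and was 0.75 without HEK-293T siHNRNPH1 replicate 1 (adjusted p = 6.52e-08). This difference was smaller when the counts of the readthrough gene RPL36A-HNRNPH2 were added to HNRNPH2. With the counts of both genes summed it was 0.16 and not called (SE 0.28, adjusted p = 0.771), and without HEK-293T siHNRNPH1 replicate 1 it was 0.49 and called (adjusted p = 5.20e-04).

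Reads from HNRNPH1 and HNRNPH2 can be hard to separate because the genes are so alike, and RSEM divides such reads by an estimate. The sum of both does not depend on that division. It fell to 29.8% of control in HEK-293T, from a mean of 1316 to 392 CPM (log2 fold change -1.78, adjusted p = 0.00943), or to 34.3% without replicate 1 (-1.60, adjusted p = 4.30e-21), and to 40.1% in HT-1080, from 732 to 293 CPM (-1.39, adjusted p = 9.74e-09).

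A second gene also shares sequence with HNRNPH2. The table lists RPL36A-HNRNPH2, a readthrough gene that joins the ribosomal protein gene RPL36A to HNRNPH2, at 168 CPM on average in HEK-293T controls and 130.3 CPM in HT-1080 controls. After siHNRNPH1 it stood at 295, 149 and 141 CPM in HEK-293T, with replicate 1 far above the others, and at 115, 141 and 158 CPM in HT-1080. Neither change passed the test (log2 fold change 0.21, adjusted p = 0.729, and 0.01, adjusted p = 0.932). Without HEK-293T siHNRNPH1 replicate 1, RPL36A-HNRNPH2 fell by 0.27 on the log2 scale (adjusted p = 1.15e-07). With the readthrough counts added to HNRNPH2, the HEK-293T log2 fold change became -0.58 and was no longer called (adjusted p = 0.189). This sum was 335, 215 and 206 CPM after siHNRNPH1, against a control mean of 372, and without replicate 1 its log2 fold change was -0.88 and called (adjusted p = 4.30e-17). In HT-1080 the value with both genes summed was -0.34 (adjusted p = 0.00355). Of the 9 IsoSeq models at HNRNPH2 over the 4 pools (2, 2, 3 and 2), 0 began more than 1000 nt upstream of the gene's span. The HNRNPH2 decrease was thus smaller with the readthrough counts added, and in HEK-293T it also depended on replicate 1. The sign was negative in each of these fits. Adding the counts of a gene that changes less makes a fold change smaller by arithmetic alone. How RSEM divided reads among HNRNPH2, RPL36A and the readthrough gene was not tested.

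HNRNPH3 was the paralog that rose. In HEK-293T it stood at 306, 318 and 307 CPM with siNegative (310.4 ± 6.70, SD, n = 3) and at 536, 741 and 771 CPM with siHNRNPH1 (683 ± 128, SD, n = 3). Replicate 1 was the lowest of the treated libraries but still above every control. The log2 fold change was 1.11 (SE 0.15, adjusted p = 0.0138), a 2.15-fold higher level, and 1.23 without replicate 1 (adjusted p = 1.91e-19). As for HNRNPH2, the call was lost on leaving out siNegative replicate 1, 2 or 3 (adjusted p = 0.105, 0.101 and 0.107) or siHNRNPH1 replicate 2 (0.0658), with log2 fold changes of 1.06 to 1.12.

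HT-1080 gave a tighter picture for HNRNPH3. Controls lay at 209.6, 204 and 206 CPM (207 ± 2.77, SD, n = 3) and siHNRNPH1 libraries at 408, 401 and 399 CPM (403 ± 4.69, SD, n = 3). The log2 fold change was 0.90 (SE 0.04, adjusted p = 7.46e-08), or 1.86-fold. The rise was not separable between the lines with all libraries (difference -0.28, interaction adjusted p = 0.200). It was smaller in HT-1080 once HEK-293T siHNRNPH1 replicate 1 was left out (-0.38, adjusted p = 2.15e-05).

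HNRNPF, which binds the same kind of guanine runs as HNRNPH1, differed in its response between the lines. In HT-1080 it fell from 292, 293 and 287 CPM (291 ± 3.00, SD, n = 3) to 172, 175 and 165 CPM (171 ± 5.20, SD, n = 3), a log2 fold change of -0.83 (SE 0.04, adjusted p = 1.76e-07) and a 1.78-fold lower level. In HEK-293T the controls were 328, 329 and 324 CPM and the siHNRNPH1 libraries 266, 322 and 316 CPM. The groups did not overlap, but replicates 2 and 3 lay close to the lowest control. The HEK-293T log2 fold change of -0.15 (SE 0.11) did not pass the test (adjusted p = 0.468), while without replicate 1 a change of -0.091 did (adjusted p = 0.00565). The difference between the lines, -0.76 (SE 0.11), passed the interaction test (adjusted p = 7.21e-04) and was -0.79 without that library.

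GRSF1, the mitochondrial relative, moved little and in opposite directions. In HEK-293T it was at 167, 169 and 169 CPM with siNegative and at 187, 214 and 227 CPM with siHNRNPH1. These groups did not overlap. The log2 fold change of 0.28 (SE 0.11) was not called with all libraries (adjusted p = 0.181), and 0.33 was called without replicate 1 (adjusted p = 4.16e-09). In HT-1080, GRSF1 fell from 153, 154 and 148 CPM to 136, 143 and 138 CPM (-0.20, SE 0.04, adjusted p = 0.00278), a call lost in a fit of all 12 libraries (0.0625). The difference between the lines was -0.55 (SE 0.11, interaction adjusted p = 0.00458) and was not called without a filter on low counts (-0.45, adjusted p = 0.124). In all, 3 of the 4 paralogs passed this interaction test with all libraries, against 19.0% of all genes. Without HEK-293T siHNRNPH1 replicate 1, 4 of 4 did, against 49.0%.

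**Figure D2:**
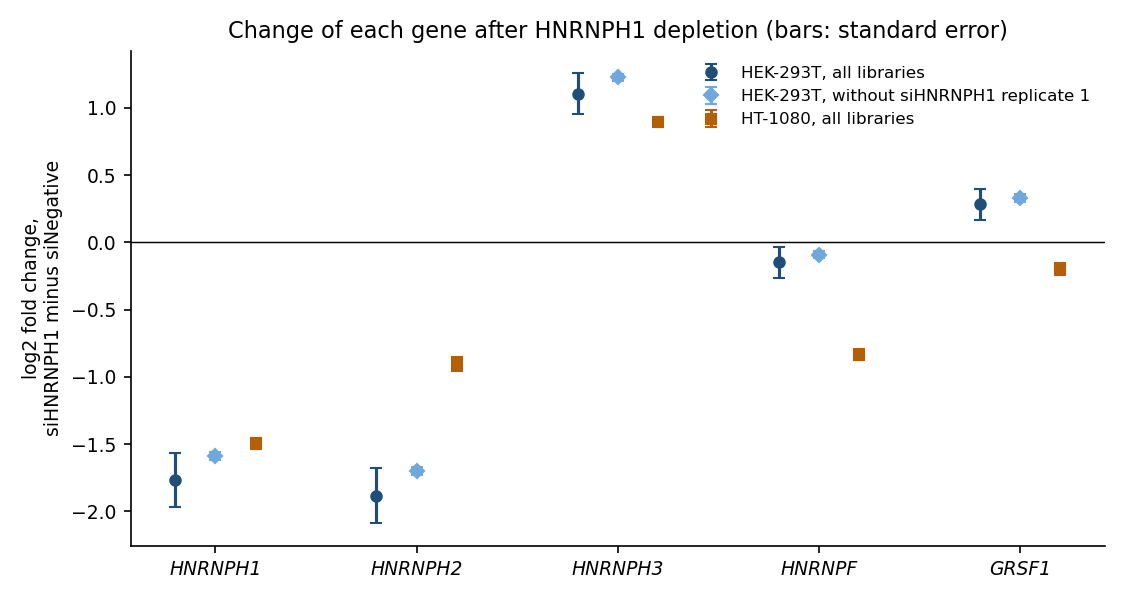
Log2 fold changes (siHNRNPH1 minus siNegative) of the 5 genes with standard errors, for HEK-293T with all 6 libraries, HEK-293T without siHNRNPH1 replicate 1, and HT-1080. HNRNPH3 lies near 1 in all 3 fits, while HNRNPF lies at -0.15 and -0.091 in HEK-293T and at -0.83 in HT-1080.

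Summed over HNRNPH1, HNRNPH2 and HNRNPF, HEK-293T counts of 1642 CPM became 693 CPM (42.2% of control, or 46.9% without siHNRNPH1 replicate 1). HT-1080 counts of 1022 CPM became 464 CPM (45.4%). With HNRNPH3 included, the sums were 1376 of 1953 CPM in HEK-293T (70.4% of control, or 78.1% without replicate 1) and 867 of 1229 CPM in HT-1080 (70.5%). Every siHNRNPH1 library lay below every control in each of these sums. They are sums of counts per library, not scaled for transcript length, and say nothing of protein.

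The other hnRNP genes give the setting for these changes. Of 23 tested, 0 were called in HEK-293T with all libraries in edgeR (3 at an unadjusted p under 0.05), 2 were called by DESeq2, and their median log2 fold change was -0.21. Without siHNRNPH1 replicate 1, 19 were lower, with a median of -0.19. In HT-1080, 1 was higher (PCBP2, log2 fold change 0.11) and 21 were lower, with a median of -0.54 against 0.01 for all genes. For scale, 32.7% of all genes were called higher and 32.6% lower in HT-1080, and 30.5% and 31.3% in HEK-293T without replicate 1. With all libraries, 10.0% of all genes were called in either direction in HEK-293T. How many of all genes pass at an unadjusted p under 0.05 or by DESeq2 was not counted, so no weight is placed on such counts. The fall of HNRNPF in HT-1080, at -0.83, lay within the range of this list, from -0.93 to 0.11. The rise of HNRNPH3 lay above the highest value of the list in each line. A further list held 8 genes of RNA-binding proteins (DHX36, RBFOX2, CELF1, MBNL1, SRSF1, SRSF2, SRSF5 and ELAVL1). Of these, 0 were called in HEK-293T with all libraries in edgeR (2 at an unadjusted p under 0.05) and 0 by DESeq2. Without replicate 1, 1 was higher (MBNL1, 1.03) and 5 were lower, and in HT-1080 1 was higher (CELF1, 0.22) and 5 were lower.

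The variants that carried the HNRNPH3 rise were examined next. Each transcript has a level in CPM and a share, its percent of the gene's expected counts. Transcript usage is the log2 change of a transcript relative to the other transcripts of its gene (limma diffSplice). By gene, usage changed in HNRNPH3 in both lines (adjusted p = 0.00363 in HEK-293T and 2.33e-08 in HT-1080). Over all genes with several transcripts, 9.59% were called in HEK-293T, against 21.2% in HT-1080. The HEK-293T call was lost on leaving out siNegative replicate 1, 2 or 3 (adjusted p = 0.0973, 0.0981 and 0.0801) and held without siHNRNPH1 replicate 1 (6.50e-14), where 41.6% of genes were called. It was also lost when only transcripts of at least 5% were tested (adjusted p = 0.623).

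Most of the added HNRNPH3 RNA was the main transcript, ENST00000265866.12. In HEK-293T it rose from 173, 180.0 and 174 CPM to 430.1, 445 and 467 CPM (log2 fold change 1.37, SE 0.12, adjusted p = 0.0394, and 1.33 without replicate 1, adjusted p = 2.94e-04). That is 73.1% of the gene's gain in CPM, or 63.0% without replicate 1. The call on its level was lost on leaving out any HEK-293T library but siHNRNPH1 replicate 1, with adjusted p from 0.161 to 0.342, and without the filter on low counts (0.0516), where only 0.248% of all transcripts were called with all libraries. In HT-1080 it rose from 97.5, 101 and 97.0 CPM to 219.9, 217 and 224 CPM (1.14, SE 0.04, adjusted p = 9.35e-05), 62.2% of the gain, where 16.1% of transcripts were called.

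The share of ENST00000265866.12 in HNRNPH3 was higher after siHNRNPH1 as well. In HEK-293T it was 56.5%, 56.6% and 56.5% with siNegative and 80.3%, 60.0% and 60.6% with siHNRNPH1. Replicate 1 lay far above the other treated libraries, and the usage change was not called with it (adjusted p = 0.127) and was called without it (0.24, adjusted p = 1.92e-05). In HT-1080 the share was 46.5%, 49.2% and 47.1% in controls and 53.9%, 54.2% and 56.1% after siHNRNPH1 (usage 0.41, adjusted p = 4.53e-04). Leaving out any 1 of the HT-1080 siHNRNPH1 replicates took this usage call away, with adjusted p = 0.0891, 0.126 and 0.134, as did edgeR's usage test (0.99998). The exact permutation test on shares cannot go below 0.1 with 3 libraries against 3, so overlap of the groups is the main guide for single shares.

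A smaller HNRNPH3 transcript, ENST00000481819.5, moved against its gene. Its share in HEK-293T was 4.69%, 4.52% and 4.30% with siNegative and 0.110%, 1.05% and 1.14% with siHNRNPH1. In HT-1080 it was 7.76%, 6.65% and 8.22%, then 2.69%, 2.93% and 3.08%. The groups were well apart in both lines. Usage changed by -2.76 in HEK-293T (adjusted p = 0.00198) and by -2.09 without replicate 1 (3.18e-14), and by -1.44 in HT-1080 (1.04e-08). Leaving out siNegative replicate 1, 2 or 3 put the HEK-293T adjusted p at 0.0594, 0.0608 and 0.0503. It was the 1 named transcript of the 4 genes called in usage in both lines, where the background was 2.68% of transcripts for HEK-293T, 15.4% without its replicate 1, and 7.04% for HT-1080.

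The level of ENST00000481819.5 was lower too, while that of HNRNPH3 was higher. It averaged 14.0 ± 0.677 CPM and then 5.74 ± 4.49 CPM in HEK-293T (SD, n = 3 each), and 15.6 ± 1.78 and 11.7 ± 0.675 CPM in HT-1080. The log2 fold changes in level, -1.33 (adjusted p = 0.551) and -0.44 (adjusted p = 0.0518), did not pass the test, although the groups did not overlap in either line. Without HEK-293T siHNRNPH1 replicate 1 the change in level was -0.80 and was called (adjusted p = 0.00642; background 16.0% of transcripts), and without HT-1080 siNegative replicate 2 it was -0.52 (adjusted p = 0.0258).

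A second minor transcript, ENST00000478698.1, showed the same direction and was singled out after its values were seen, as it holds under 5% of HNRNPH3 in every group. In HEK-293T its share was 2.58 ± 0.0792% with siNegative and 0.739 ± 0.142% with siHNRNPH1, and in HT-1080 these shares were 3.62 ± 0.418% and 1.49 ± 0.222% (SD, n = 3 each). Its usage change was called in HT-1080 (-1.31, adjusted p = 1.85e-05). In HEK-293T it was -1.38 and not called with all libraries (adjusted p = 0.228), and -1.69 and called without replicate 1 (2.50e-10).

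A further minor HNRNPH3 transcript, ENST00000491200.5, lies outside the 5% rule and was also picked with its values known. Its HT-1080 share was 0.722%, 0.449% and 1.52% with siNegative and 1.74%, 1.83% and 1.91% with siHNRNPH1 (usage 1.25, adjusted p = 0.00189). In HEK-293T it was 4.41%, 3.59% and 3.80%, then 1.96%, 3.19% and 3.28%, and usage was not called (0.034, adjusted p = 0.993, and -0.29, adjusted p = 0.0547, without replicate 1). The groups did not overlap in either line, with the siHNRNPH1 shares above the controls in HT-1080 and below them in HEK-293T.

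Among the remaining named HNRNPH3 transcripts, ENST00000467249.1 gained share in HT-1080. It went from 6.48%, 5.83% and 5.96% to 8.34%, 9.36% and 10.3% (usage 0.71, adjusted p = 5.53e-04), and its level rose from 12.6 to 37.5 CPM on average (log2 fold change 1.56, adjusted p = 4.22e-04). Its usage call was lost without HT-1080 siHNRNPH1 replicate 2 or 3 (adjusted p = 0.115 and 0.126) and with edgeR's usage test (0.277). In HEK-293T its share was 5.04%, 5.20% and 4.86% with siNegative but 2.84%, 7.89% and 7.71% with siHNRNPH1, so replicate 1 lay below the controls and replicates 2 and 3 above. Usage of ENST00000467249.1 was called there only without replicate 1 (0.66, adjusted p = 4.01e-07).

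ENST00000354695.5, the second largest HNRNPH3 transcript, rose in level with the gene in HT-1080 and supplied 18.8% of the gain (53.8, 51.4 and 53.2 CPM, then 101, 90.3 and 78.2 CPM, log2 fold change 0.75, adjusted p = 0.00480). Its share there was 25.7%, 25.2% and 25.8%, then 24.7%, 22.5% and 19.6%. In HEK-293T its level was 64.2, 71.2 and 66.9 CPM in controls and 61.8, 158 and 161 CPM after siHNRNPH1. Replicate 1 did not share the gain seen in replicates 2 and 3, and the change was called only without it (1.19, adjusted p = 6.89e-04). ENST00000480987.5 rose in HT-1080 as well (1.07, adjusted p = 0.00132), at a nearly constant share of 5.69% and 6.24%.

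**Figure D3:**
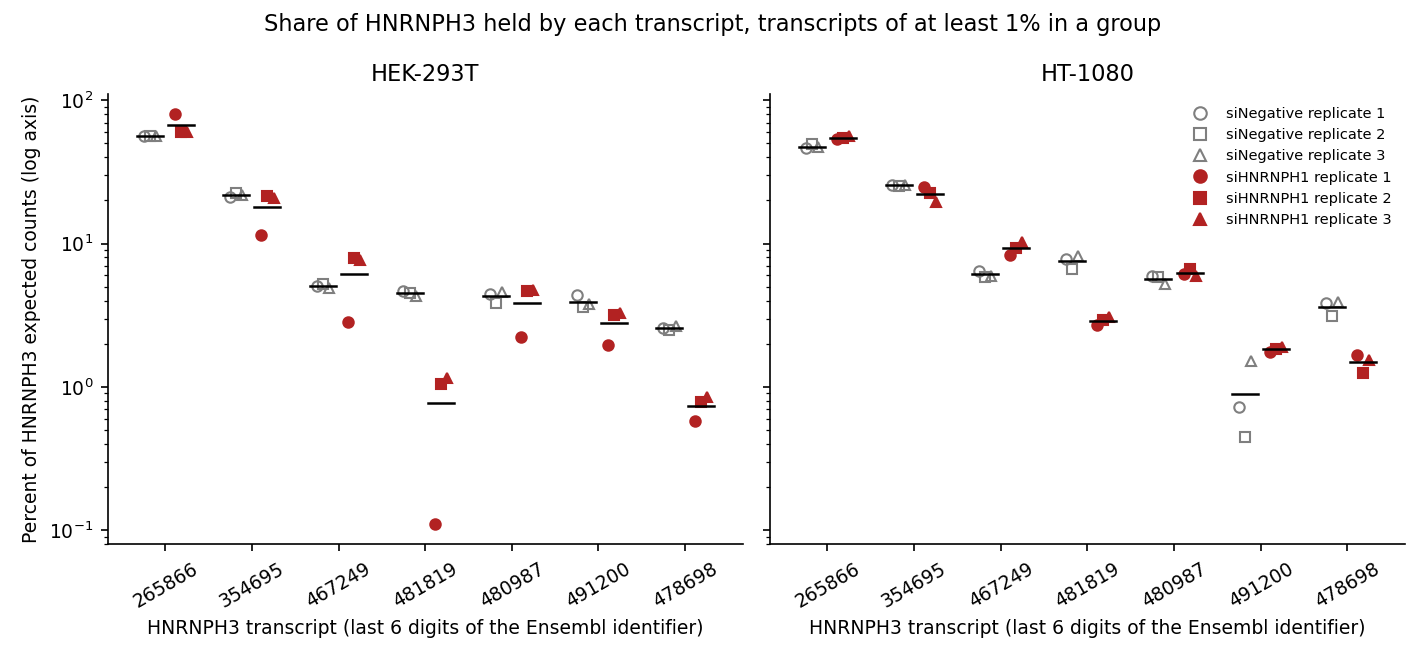
Percent of HNRNPH3 expected counts (log axis) held by each transcript with a mean of at least 1% in a group, per library, with HEK-293T on the left and HT-1080 on the right and black bars for means of 3. ENST00000481819 and ENST00000478698 lie below their controls in every siHNRNPH1 library of both lines, ENST00000265866 lies above, and HEK-293T siHNRNPH1 replicate 1 (filled circles) departs from its group for most transcripts.

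IsoSeq models gave a separate view of HNRNPH3 splicing. The models carry no read counts, so each counts once whatever its abundance, and with 1 pool per group there is no test. The number of models at HNRNPH3 was 23 in the siNegative and 53 in the siHNRNPH1 pool of HEK-293T, and 20 and 32 in HT-1080. The pools held 64705, 94847, 72186 and 68078 models in that order, so the gain in HEK-293T came with a larger pool and the gain in HT-1080 with a smaller one.

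HNRNPH3 has a cassette exon at chr10:68337858-68337996 (GRCh38, plus strand), an internal exon of 139 nt, which is not a multiple of 3. Models that skip it join the exon that ends at 68337333 to the exon that starts at 68338503. In HEK-293T, 4 of 13 informative models skipped it with siNegative (30.8%, exact Clopper-Pearson 95% interval 9.09% to 61.4%) and 4 of 33 with siHNRNPH1 (12.1%, 3.40% to 28.2%). In HT-1080, 6 of 17 skipped it with siNegative (35.3%, 14.2% to 61.7%) and 1 of 22 with siHNRNPH1 (4.55%, 0.115% to 22.8%). Skipping was lower after siHNRNPH1 in both lines, but the intervals overlap in each, and they cover counting error only. In HEK-293T skipping models numbered 4 and 4, and models that include the exon 9 and 29.

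Downstream in HNRNPH3, an exon ends at either of a pair of 5′ splice sites 45 nt apart, a multiple of 3. The introns start at 68338643 or 68338688 on chromosome 10 and both end at 68339139. The upstream site, which gives the shorter exon, was used in 12 of 19 models with siNegative and 23 of 47 with siHNRNPH1 in HEK-293T (63.2% and 48.9%), and in 10 of 18 and 9 of 26 in HT-1080 (55.6% and 34.6%). These shares too were lower after siHNRNPH1 in both lines with overlapping intervals, which ran from 38.4% to 83.7% and 34.1% to 63.9% in HEK-293T and from 30.8% to 78.5% and 17.2% to 55.7% in HT-1080.

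**Figure D4:**
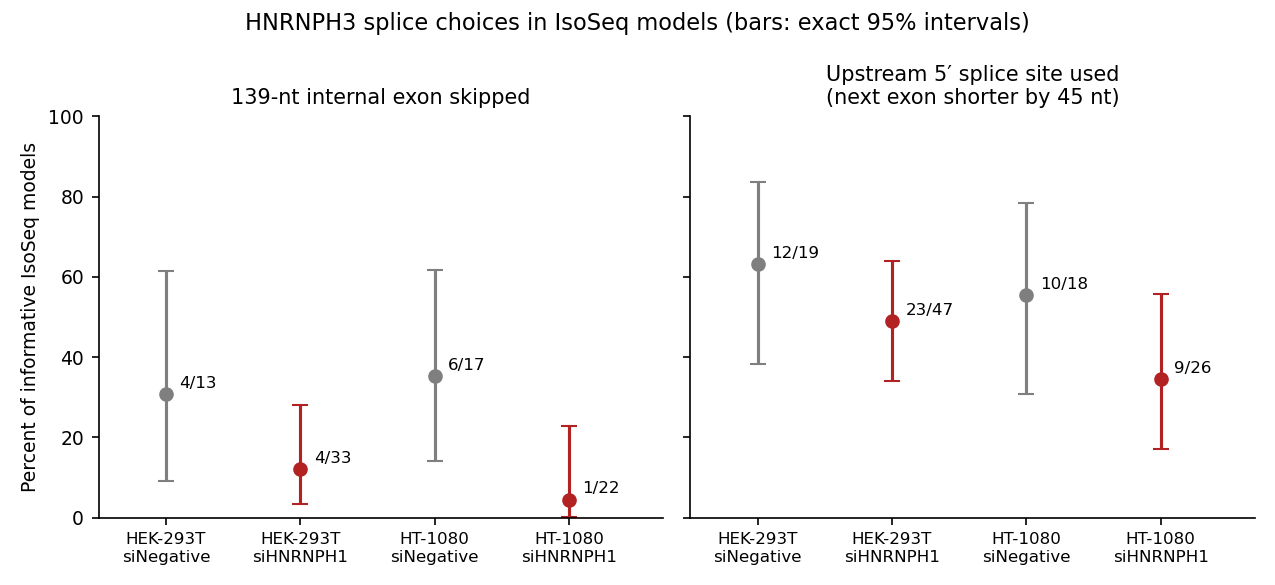
Percent of informative IsoSeq models of HNRNPH3 that skip the 139-nt cassette exon (left) and that use the upstream of the 2 alternative 5′ splice sites (right) in each of the 4 pools, with exact 95% intervals and counts of models. Both shares are lower in the siHNRNPH1 pool of each line, and the intervals of the paired pools overlap.

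The introns on each side of the cassette exon were kept in some HNRNPH3 models. In HEK-293T the downstream intron, chr10:68337997-68338502, was retained in 6 of 23 spanning models with siNegative (26.1%, exact interval 10.2% to 48.4%) and 2 of 47 with siHNRNPH1 (4.26%, 0.520% to 14.5%). In HT-1080 it was retained in 1 of 18 and 1 of 28. The upstream intron, chr10:68337334-68337857, was retained in 9 of 22 and 11 of 45 models in HEK-293T and in 1 of 18 and 4 of 26 in HT-1080, so the lines did not share a direction there. Which Ensembl transcript holds which of these exons was not analysed here, so the short-read shares and the IsoSeq shares stand side by side and are not joined. Whether these exons are coding or untranslated was not analysed here either.

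For HNRNPF the decrease in HT-1080 was spread over its variants. All 4 named transcripts were called lower in level, as were 8.18% of all transcripts. Of these, ENST00000337970.7 went from a mean of 133 to 76.5 CPM (log2 fold change -0.82, adjusted p = 0.00745), and it held 47.0% of the gene's loss. ENST00000682386.1 stood at 111, 82.3 and 105 CPM and then at 68.1, 61.3 and 69.3 CPM (-0.60, adjusted p = 0.0209), 27.6% of the loss. Its call was lost on leaving out any HT-1080 library other than siNegative replicate 2 (adjusted p from 0.0563 to 0.0798). ENST00000357065.8 and ENST00000443950.6 took a further 10.8% and 9.70% of the loss, with log2 fold changes of -0.89 (adjusted p = 0.00778) and -1.37 (5.09e-04). The mean share of ENST00000337970.7 in HNRNPF changed little (45.7% and 44.7%). Shares of ENST00000682386.1 (means 34.2% and 38.9%) and ENST00000357065.8 (9.84% and 9.13%) overlapped between the groups. ENST00000443950.6 held 6.60 ± 0.310% and 4.42 ± 0.107% (SD, n = 3 each), without overlap but not called in usage (adjusted p = 0.128).

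By gene, HNRNPF usage in HT-1080 passed the test (adjusted p = 0.0258), but not on leaving out HT-1080 siHNRNPH1 replicate 1, 2 or 3 (adjusted p = 0.197, 0.0549 and 0.165), and not with edgeR's own usage test (0.670). The transcript with the usage call was a minor one, ENST00000356053.7, named after its values were seen. It went from 1.97%, 1.98% and 1.46% of HNRNPF to 0.462%, 0.841% and 0.497% (usage -1.61, adjusted p = 0.0160), and its level fell from 5.24 to 1.03 CPM (-2.37, adjusted p = 0.00644).

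In HEK-293T, where the HNRNPF total differed little, the shares of the 2 largest variants shifted against each other. ENST00000682386.1 held 38.5%, 36.3% and 37.8% with siNegative and 30.2%, 28.4% and 32.8% with siHNRNPH1. ENST00000337970.7 held 36.7%, 39.1% and 38.3%, then 50.7%, 45.1% and 41.9%. The groups did not overlap for either transcript, replicate 1 included. Shares of 1 gene are tied to each other, and neither transcript was called in level with all libraries. The log2 fold changes in level were -0.40 for ENST00000682386.1 (adjusted p = 0.241) and 0.16 for ENST00000337970.7 (0.632). Without replicate 1, ENST00000682386.1 was called lower in level (-0.38, adjusted p = 0.0235) and ENST00000337970.7 was not called (0.11, adjusted p = 0.234). Usage of HNRNPF was not called with all libraries (adjusted p = 0.654) and was called without replicate 1 (2.62e-04), with -0.46 for ENST00000682386.1 (adjusted p = 1.42e-04) and 0.33 for ENST00000337970.7 (0.00300). In HT-1080 the corresponding shares of ENST00000682386.1, 38.1%, 28.1% and 36.4% against 39.6%, 35.0% and 42.0%, overlapped between the groups.

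**Figure D5:**
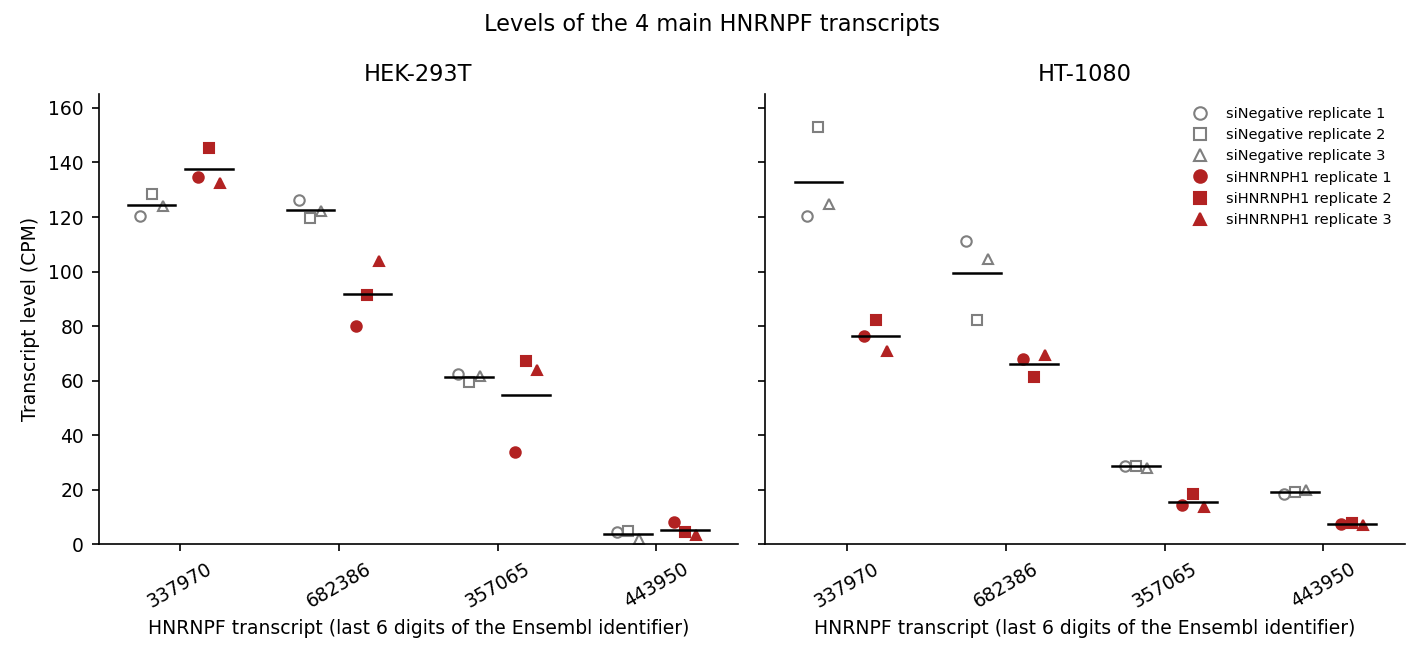
Levels in CPM of the 4 HNRNPF transcripts with at least 5% of the gene in a group, per library, HEK-293T on the left and HT-1080 on the right, with black bars for means of 3. In HT-1080 each transcript lies lower in all siHNRNPH1 libraries, while in HEK-293T ENST00000337970 lies higher and ENST00000682386 lower. Neither of these HEK-293T changes in level was called with all libraries.

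HNRNPF models in IsoSeq numbered 23 and 40 in HEK-293T and 25 and 17 in HT-1080 (siNegative, then siHNRNPH1). The gene lies on the minus strand of chromosome 10, and the first junctions of its models started from 6 recurrent exon ends. For each of them the exact intervals of the siRNAs overlapped. The one most used in HEK-293T controls, at 43396456, came first in 8 of 23 models there (34.8%) and in 10 of 40 after siHNRNPH1 (25.0%). In HT-1080 it did so in 4 of 25 and 4 of 17 (16.0% and 23.5%), so its direction differed between the lines. It ends the exon that the other recurrent first exons join, so it need not mark a separate first exon. In HEK-293T controls, 17 of 23 models reached past the intron upstream of that exon, chr10:43396591-43397184, and 2 kept that intron.

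By gene, GRSF1 usage in HEK-293T was not called with all libraries (adjusted p = 0.378). It was called without siHNRNPH1 replicate 1 (0.00191), where 41.6% of genes were. Among its 7 variants, 2 had shares there without overlap of the siRNA groups. How many of all transcripts show this was not counted, so no weight is placed on that number. ENST00000254799.11 held 20.2%, 19.1% and 19.1% of GRSF1 there with siNegative and 24.2%, 35.2% and 34.4% with siHNRNPH1, and its level went from 32.8 ± 0.853 to 66.1 ± 18.2 CPM (SD, n = 3 each). With all libraries neither the level (1.01, adjusted p = 0.106) nor the usage was called, and without siHNRNPH1 replicate 1 both were (1.17, adjusted p = 4.10e-04, and 1.14, adjusted p = 0.00187). ENST00000514161.5 held 24.3%, 14.2% and 12.6% and then 4.89%, 4.41% and 7.43%, with no overlap. Its usage change was called only without replicate 1 (-1.68, adjusted p = 0.00235).

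In HT-1080, the shares of these GRSF1 transcripts differed in the same directions. ENST00000254799.11 held 23.8 ± 2.61% and then 29.3 ± 1.39%, and ENST00000514161.5 held 27.2 ± 1.46% and then 24.1 ± 2.27% (SD, n = 3 each), neither of them called. ENST00000499044.6 was called in usage (0.49, adjusted p = 0.0347), with shares of 9.83%, 14.4% and 11.4%, then 16.9%, 15.5% and 16.0%. ENST00000505068.5 was called lower in level (-0.37, adjusted p = 0.0225), from 43.9, 42.4 and 38.0 CPM to 32.2, 32.1 and 33.7 CPM. The usage call was lost on leaving out any HT-1080 library except siNegative replicate 2 (adjusted p 0.0865 to 0.165) and with edgeR's usage test (0.99998). The call on level was lost without siNegative replicate 1 or any siHNRNPH1 replicate (0.0716 to 0.0958). The usage call for GRSF1 as a gene (adjusted p = 0.0423) was lost on leaving out any HT-1080 library except siNegative replicate 2 (0.0825 to 0.140) and with edgeR's usage test. ENST00000502323.5 held 0% to 17.9% in single HEK-293T libraries and ENST00000506453.1 held 9.05% in siHNRNPH1 replicate 1 against at most 1.33% in the others, so neither is described further. GRSF1 had 12, 29, 16 and 13 IsoSeq models, and its most often retained intron, chr4:70825432-70826123, was kept in 2 of 12 and 4 of 29 models in HEK-293T and 2 of 16 and 1 of 13 in HT-1080.

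For each paralog, the genes with the most similar pattern over the 12 libraries were listed among 12173 genes, by Pearson r of log2(CPM + 1) centred within each line. They describe these libraries only, since the libraries fall into siRNA groups that any responding gene would follow. IKBKB (0.997), ATE1 (0.995) and SNAPC3 (0.995) were most like HNRNPH2. MR1 (0.997), SCART1 (0.995) and RND3 (0.992) were most like HNRNPH3. LMNB1, WDR76 and JPT2 (all 0.998) were most like HNRNPF, and RNF34, ENOPH1 and DNAJB6 (0.982, 0.981 and 0.980) were most like GRSF1.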

How the data were processed

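RNA was measured by short reads in 12 libraries and by IsoSeq in 4 pools. RSEM gave the deposited table of expected counts for each transcript variant (build GRCh38.p13, per the submitters' processing notes), and each cell line has its own table. The aligner, annotation release and strandedness are not given in the sources used here. The deposited IsoSeq files list exon positions of transcript models without counts. The members and gene lists were chosen with earlier results of these data known.

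Columns were matched to samples by name. Expected counts were summed per gene, rounded, filtered with filterByExpr, scaled by TMM and tested per line with edgeR 4.0.16 (quasi-likelihood, robust, two-sided), unblocked. Transcripts were tested likewise, and usage with limma 3.58.1 diffSplice on voom weights. An edgeR interaction over all 12 libraries compared the lines. All p-values were BH-adjusted over everything tested, with a threshold of 0.05. CPM is the expected count per M (mega) counts of the library. Transcripts were named at a mean of at least 5% of the gene in any group, or when called in usage in both lines. Pairs of libraries within a group differed by a chi-square of 1.78 to 848 per degree of freedom, so none is a copy. Deviations of same-numbered replicates correlated weakly and positively between the siRNA groups (r of 0.0284 to 0.127). Numbers were not treated as pairs in the main fits. IsoSeq loci were named by RefSeq spans (GRCh38.p14), with printed coordinates from the files, and models carry 95% exact intervals. The steps were tested on simulated data. Alternatives were other scalings, filters, tests, a replicate block, leaving out each library and, added after the data were seen, HNRNPH2 with its readthrough gene.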

Additional observations from a re-analysis of the deposited data

Results flagged for a closer look

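For 3 of the 4 paralogs the effect of siHNRNPH1 differed between the cell lines in the interaction test (edgeR, HT-1080 minus HEK-293T). Of all genes, 19.0% passed this test, and 49.0% did without HEK-293T siHNRNPH1 replicate 1. The difference in log2 fold change was 0.92 for HNRNPH2, whose fall was smaller in HT-1080. With the counts of the readthrough gene RPL36A-HNRNPH2 added to HNRNPH2 this difference was 0.16 and did not pass (adjusted p = 0.771), and it was 0.49 (adjusted p = 5.20e-04) without HEK-293T siHNRNPH1 replicate 1. Adding the counts of a gene that changes less makes a fold change smaller by arithmetic alone. The difference between the lines was -0.76 for HNRNPF, which fell in HT-1080. It was -0.55 for GRSF1, with a positive value in HEK-293T and a negative one in HT-1080, and was not called without the filter on low counts. The lines were counted in separate tables and differ in depth, and whether either plays a part in these differences was not tested.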

How the results depend on the processing

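Of the short-read gene, usage and interaction results, 224 values under other settings kept their direction and side of the threshold, 33 lost a call, 6 gained one and 0 reversed. Of the transcript results (level, usage and share), 40 values lost a call and 22 gained one. The other 684 kept their side of the threshold or, for shares, moved by less than the SD of the replicates. The 12 IsoSeq values under other settings moved by less than their intervals. Apart from leaving out single libraries, the settings that changed a call among the gene, usage and interaction results follow. With the replicate block in HEK-293T, HNRNPH1 was at -1.79 (adjusted p = 0.0665), HNRNPH2 at -1.91 (0.0657) and HNRNPH3 at 1.09 (0.0847), all no longer called, and the block changed no other of these results. Among transcript levels, the block also took away the HEK-293T calls of ENST00000265866.12 of HNRNPH3 and of the HNRNPH2 transcript (adjusted p = 0.517 for each). The numbers share only a label (same-number correlations of deviations were 0.104, 0.110 and 0.0284 in HEK-293T and 0.0391, 0.127 and 0.0633 in HT-1080). Summing HNRNPH2 with its readthrough gene gave -0.58 in HEK-293T and 0.16 for the HNRNPH2 difference between lines (adjusted p = 0.771), both no longer called and both chosen after seeing the data. In 1 fit of all 12 libraries GRSF1 was called in HEK-293T (0.34) and not in HT-1080 (-0.21, adjusted p = 0.0625). Usage adjusted p rose to 0.623 for HNRNPH3 in HEK-293T and to 0.107 for HNRNPF in HT-1080 with transcripts of at least 5% alone, and with diffSpliceDGE to 0.670 for HNRNPF and 0.99998 for GRSF1 in HT-1080. Without a filter on low counts the GRSF1 difference between lines was -0.45 (adjusted p = 0.124). The causes were not tested.

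Leaving out 1 library at a time in HEK-293T gave log2 fold changes of -1.89 to -1.58 for HNRNPH1, -1.99 to -1.70 for HNRNPH2, 1.02 to 1.23 for HNRNPH3, -0.18 to -0.091 for HNRNPF and 0.23 to 0.33 for GRSF1. The HNRNPH1 call was lost in 4 of these 6 fits (adjusted p 0.0514 to 0.0760). Adjusted usage p ran from 6.50e-14 to 0.0981 for HNRNPH3, 2.62e-04 to 0.930 for HNRNPF and 0.00191 to 0.823 for GRSF1 in HEK-293T, and in HT-1080 from 0.0219 to 0.197 for HNRNPF and 0.00799 to 0.140 for GRSF1. The HNRNPH3 difference between lines ran from -0.38 to -0.21. In HEK-293T, 10.0% of genes were called with siHNRNPH1 replicate 1 and 61.8% without it. IsoSeq shares are limited by counts of models.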
